A study of Mus musculus with 20 samples.

Results

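The genes described here encode the proteins of the cytoplasmic ribosome, together with paralogues that arose from them. Symbols beginning with Rpl or Rps and a digit, with Rplp or with Rpsa were taken from the gene tables, S6 kinase genes and symbols marked as pseudogenes were dropped, and at least 10 counts in 2 or more libraries were required. Of 86 such symbols, 85 met the count rule, out of 23361 entries in the table. They comprise 76 main ribosomal protein genes, 8 paralogues and Rps19bp1, whose product binds the Rps19 protein and is no part of the ribosome. Rpl29, a large subunit gene, was the symbol that failed, with 10 counts or more in 1 library only.

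Stranded polyadenylated RNA was sequenced from mouse embryonic stem cells (ESC) while they were converted into epiblast stem cells (EpiSC), which resemble the epiblast after implantation. The lines were PGK, which is female, and E14, which is male. Both were sampled at 5 stages in 2 differentiation experiments, named diff2 and diff3, giving 10 groups of 2 libraries. Day 0 (d0) cells were in 2i medium, a culture with 2 kinase inhibitors that keeps ESC naive. All later cells were in N2B27 with activin A and Fgf2 on fibronectin and were sampled at day 4 (d4), day 10 (d10), days 19 to 23 (d19to23) and days 27 to 30 (d27to30). With 1 line of each sex, the sex and the line cannot be told apart. The labels give each experiment as a separate course, and no group has more than these 2 courses, so every p-value rests on the spread between them.

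A ribosome carries 1 copy of nearly every ribosomal protein, and mammalian genomes hold 1 working intron-bearing gene for most of them plus many processed copies made by reverse transcription of the mRNA. Most such copies are silent pseudogenes, but a few are expressed. Rpl10l, Rpl39l, Rpl36al and Rps4l are processed copies, or retrogenes, of the X-linked genes Rpl10, Rpl39, Rpl36a and Rps4x. Rpl10l is best known from the testis, where it stands in for Rpl10 while the X chromosome is silenced in male meiosis. The other paralogues, Rpl3l, Rpl7l1, Rpl22l1 and Rps27l, carry introns and are duplicates of autosomal genes, and Rpl3l is known from heart and skeletal muscle. Messages of ribosomal protein genes typically begin with a run of pyrimidines, the 5′ terminal oligopyrimidine or TOP motif, through which the mTOR kinase controls their translation.

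The retrogenes were found in GENCODE M21 (GRCm38). Rpl10l lies at chr12:66283379-66284401 on the minus strand as 1 exon, Rpl36al at chr12:69182731-69184083 on the minus strand as 1 exon, and Rpl39l at chr16:10170226-10174911 on the plus strand with 3 exons, of which 1 is coding. The deposited symbol Rps4y2 matched Rps4l through a RefSeq synonym, a transcribed processed pseudogene of 1 exon at chr6:148354656-148355598 on the plus strand. The first 120 coding bases of 3 pairs are shown because these retrogenes carry the largest changes below and because the reads must tell each copy from its parent. Capitals mark the bases at which the 2 members of a pair differ, positions are counted from the start codon, and the Rps4y2 sequence is the stretch of its transcript aligned to the Rps4x coding sequence.
Rpl10: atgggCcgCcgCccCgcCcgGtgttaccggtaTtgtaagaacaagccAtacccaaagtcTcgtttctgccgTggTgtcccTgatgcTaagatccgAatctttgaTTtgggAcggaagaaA
Rpl10l: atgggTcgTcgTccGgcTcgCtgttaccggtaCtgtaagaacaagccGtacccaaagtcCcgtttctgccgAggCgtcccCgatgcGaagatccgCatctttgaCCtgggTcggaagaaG
Rpl39: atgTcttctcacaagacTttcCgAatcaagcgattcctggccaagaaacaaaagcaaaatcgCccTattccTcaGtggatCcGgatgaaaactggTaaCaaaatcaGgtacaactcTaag
Rpl39l: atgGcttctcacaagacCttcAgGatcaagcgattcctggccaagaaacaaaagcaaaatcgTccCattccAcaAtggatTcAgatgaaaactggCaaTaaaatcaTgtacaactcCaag
Rps4x: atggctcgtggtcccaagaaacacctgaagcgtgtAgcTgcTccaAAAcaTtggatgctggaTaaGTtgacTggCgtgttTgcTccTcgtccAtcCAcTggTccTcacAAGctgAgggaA
Rps4y2: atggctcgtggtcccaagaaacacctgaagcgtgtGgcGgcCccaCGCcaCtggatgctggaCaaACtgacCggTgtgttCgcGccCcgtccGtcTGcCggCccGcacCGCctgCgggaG

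Over the whole coding sequence, Rpl10l matched Rpl10 at 84.7% of 642 bases without a gap. Of 214 codons, the stop included, 96 differed and 3 of those encode another residue. Rpl39l matched Rpl39 at 85.0% of 153 bases, with 21 of 51 codons differing and 3 encoding another residue. Rpl36al matched Rpl36a at 87.7% of 318 bases, with 38 of 106 codons differing and 0 encoding another residue. The Rps4y2 transcript matched the coding sequence of Rps4x at 79.6% of 789 bases. The longest run of identical bases was 23 for Rpl10l, 24 for Rpl36al, 35 for Rps4y2 and 38 for Rpl39l, so a sequence of 50 bases from these coding regions differs between retrogene and parent in at least 1 place.

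Library totals ran from 2020254 to 26936415 counts, and the 2 lowest were E14 diff3 at d0, with 3376500 counts, and E14 diff3 at d4. The E14 diff3 d0 library stood apart: 10401 genes had counts in it, against 12837 to 16699 in the other libraries, and 8 of the 76 main genes had none. The 6 diff2 libraries of d0, d4 and d10 carry a library code in their titles and are called coded here. At these stages the coded libraries are all of diff2 and the others all of diff3, so the code and the experiment cannot be told apart there. Summed levels of 8 naive pluripotency markers went from between 3374 and 5668 CPM (counts scaled to the library total) at d0 to 249.7 CPM or less at d4, and those of 6 primed markers from at most 146 CPM to at least 1784 CPM.

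Rpl10l was among the genes of the 2i state and was gone from the cultures by the third week. Values are given for diff2 first and diff3 second. In PGK it measured 136 and 177 CPM at d0, 52.8 and 18.4 CPM at d4, and 0.591 and 0 CPM at d10. It had no counts in the 4 later PGK libraries. In E14 it measured 92.6 and 74.0 CPM at d0 and 8.47 and 4.95 CPM at d4, with no counts in any of the 6 libraries from d10 on. Thus all 4 d0 libraries lay above all 4 d4 libraries, and each of the 4 courses was lower at each of these steps. The group means were 157 ± 29.3 CPM in PGK and 83.3 ± 13.2 CPM in E14 at d0 (SD, n = 2).

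With 3 counts over a group as the floor, Rpl10l was at least 2353-fold lower at d27to30 than at d0 in PGK (adjusted p = 0.000347) and at least 1260-fold lower in E14 (adjusted p = 0.000824), both by edgeR's quasi-likelihood test with Benjamini-Hochberg adjustment over all tested genes. From d0 to d4 the log2 fold change was -3.58 ± 0.75 (SE) in E14 (edgeR adjusted p = 0.0253). It was -2.21 ± 0.72 in PGK, which missed the threshold of 0.05 (adjusted p = 0.0777); with the experiment as a replicate block it was -2.47 and passed (edgeR adjusted p = 0.0456), and without the coded libraries it was -3.32. From d4 to d10 it fell in PGK, by 7.31 on the log2 scale (edgeR adjusted p = 0.0185), and in E14, where d10 had no counts (adjusted p = 0.0347). The d4 step in E14 lost its call without either E14 d4 library (edgeR adjusted p of 0.0985 and 0.165), and the d10 step in E14 lost it without any of its 4 libraries (0.101 to 0.366) and in PGK without the diff3 d10 library (0.0528). At d0 the 2 lines did not differ past the threshold, with a log2 difference of 0.97 ± 0.77 for PGK over E14 (edgeR adjusted p = 0.645).

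Rpl39l, the retrogene of a small protein at the mouth of the ribosome's exit tunnel, followed the same course in PGK. It measured 66.3 and 84.2 CPM at d0, 9.19 and 3.24 CPM at d4 and 0.169 and 0 CPM at d10, and had no counts later. Both PGK d0 libraries thus lay above every later PGK library. Its log2 fold change from d0 to d4 was -3.67 ± 0.71 (edgeR adjusted p = 0.0109), that from d4 to d10 was -6.54 ± 1.02 (adjusted p = 0.025), and it was at least 1130-fold lower at d27to30 than at d0 (adjusted p = 0.000255). The d10 step lost its call without the PGK diff3 d10 library (0.130) or the diff2 d4 library (0.0552).

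In E14 the 2 experiments disagreed on Rpl39l, and whether both began from the same stock of E14 cells is not given in the sources used here. The diff2 course measured 47.4 CPM at d0, 3.9 CPM at d4 and 0.0832 CPM at d10. All 5 diff3 libraries of E14 had no counts of it, and in the shallow d0 library a count of 0 allows up to 0.888 CPM, far under the level in diff2. The fall from d0 to d27to30 in E14 therefore rested on 1 library and missed the threshold (edgeR adjusted p = 0.0542); it passed with the replicate block (adjusted p = 0.039) and without the diff3 d0 library (0.00392).

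Rps4y2 stayed on throughout at a declining level. In PGK it measured 330 and 434 CPM at d0, 331 and 277 CPM at d4, 124 and 171 CPM at d10, 116 and 133 CPM at d19to23, and 64.4 and 118.7 CPM at d27to30. In E14 the values were 285 and 556 CPM, 177 and 143 CPM, 80.7 and 168 CPM, 77.1 and 71.8 CPM, and 80.0 and 29.2 CPM. All 4 d0 libraries lay above all libraries of d10 and later. The log2 fold change from d0 to d27to30 was -2.14 ± 0.32 in PGK (edgeR adjusted p = 0.000979) and -2.92 ± 0.56 in E14 (adjusted p = 0.00802), and the difference between the lines was 0.83 ± 0.65 (adjusted p = 0.881). In E14 the call was lost without the diff3 d27to30 library (edgeR adjusted p = 0.0634). No single step between neighbouring stages passed the threshold for this gene.

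The remaining retrogene, Rpl36al, did not follow them. It measured 59.8 and 114 CPM at d0 and 107 and 77.7 CPM at d27to30 in PGK, and 61.9 and 92.7 CPM against 90.1 and 83.5 CPM in E14. In each line it thus rose in diff2 and fell in diff3, and the fold change averages these opposite moves. The diff2 d0 libraries are coded, and Rpl36al was lower in coded libraries (log2 -0.83 ± 0.15, described below). Its log2 fold change between these stages was 0.0042 ± 0.40 in PGK (edgeR adjusted p = 0.997) and 0.18 ± 0.45 in E14 (adjusted p = 0.823). Of the 4 retrogenes of X-linked parents, 3 were thus lower late in PGK and 2 in E14 by this test. Among all tested genes, 12.0% of 15284 were lower in PGK and 4.99% of 14501 in E14. Rpl10l and Rpl39l reached 10 counts only in d0 and d4 libraries, so they could only be found lower late. The counts are therefore no evidence about retrogenes as a set.

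**Figure D1:**
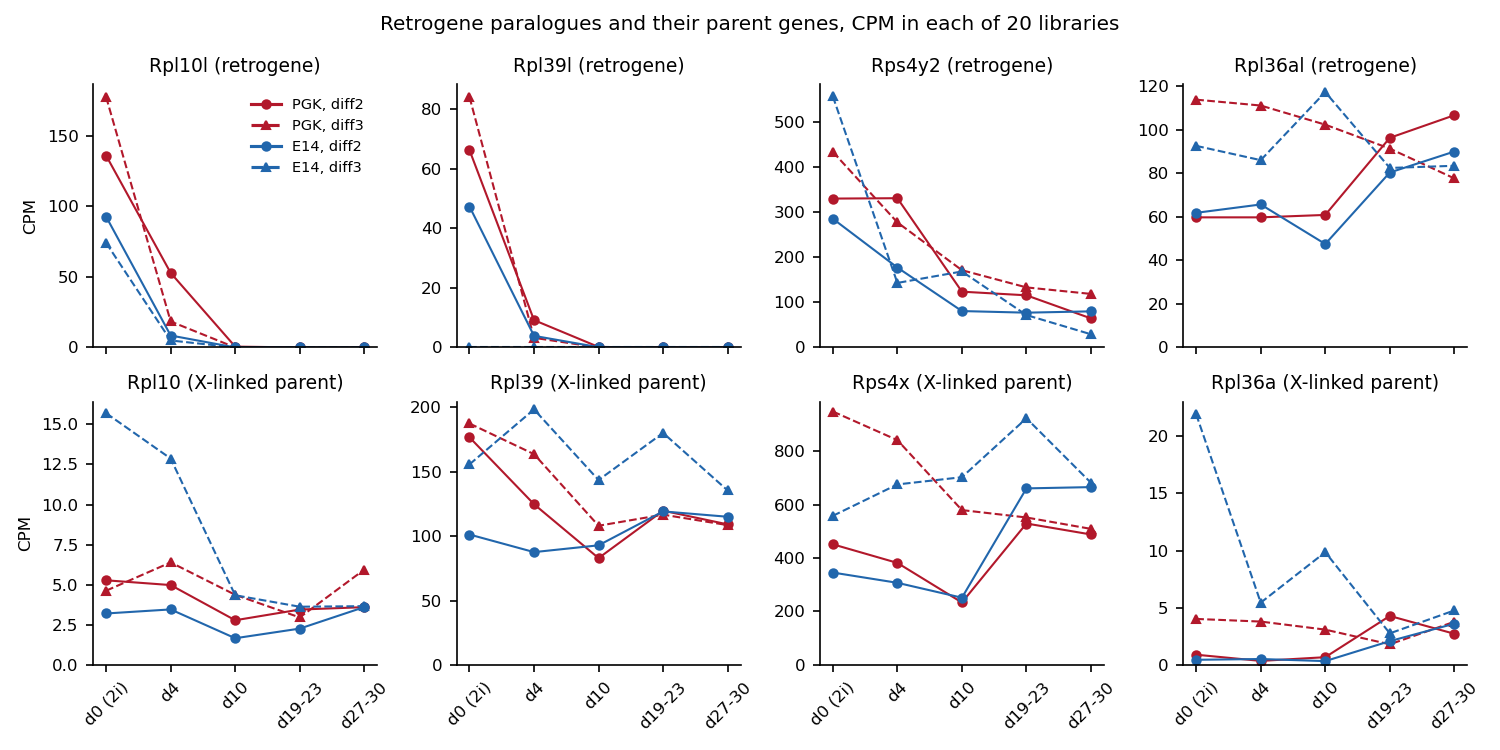
CPM (vertical axis, linear, from 0) of 4 retrogenes (top) and their X-linked parents (bottom) at the 5 stages, with 1 point per library, lines joining the libraries of 1 experiment, PGK in red and E14 in blue. Rpl10l and Rpl39l are at 0.591 CPM or less from d10 on and Rps4y2 declines, whereas Rpl36al ends between 77.7 and 107 CPM.

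None of the 4 parents passed the test for a rise from d0 to d27to30. Per kilobase of transcript, Rpl10l at d0 stood at 132.8 and 173.4 CPM per kb in PGK against 6.17 and 5.41 for Rpl10, and at 90.6 and 72.4 in E14 against 3.75 and 18.4. Rpl10, an essential protein of the large subunit, was low in all libraries (1.66 to 15.7 CPM), and its log2 fold change from d0 to d27to30 was -0.13 ± 0.61 in PGK (edgeR adjusted p = 0.893) and -1.32 ± 1.10 in E14 (adjusted p = 0.454). Of the 50-base words in the Rpl10 transcript, 85.4% also occur in transcripts of other annotated genes, against 7.6% for Rpl10l, and how such reads were counted is not given in the sources used here, so the level of Rpl10 is uncertain. Rpl39 shares 16.2% of its words and measured 177 and 188 CPM at d0 against 109 CPM in both d27to30 libraries of PGK. Both d0 values lay above both late ones, and the log2 fold change was -0.82 ± 0.22 (edgeR adjusted p = 0.0224). In E14 Rpl39 measured 101 and 156 CPM at d0 and 115 and 136 CPM at d27to30, with a log2 fold change of -0.03 ± 0.44 (adjusted p = 0.974). The PGK call was lost without the diff3 d0 library (adjusted p = 0.0578) or either d27to30 library (0.0949 and 0.112). Rps4x measured 346 and 558 CPM at d0 and 665 and 681 CPM at d27to30 in E14, so both late libraries lay above both early ones, but the log2 fold change of 0.59 ± 0.52 did not pass (edgeR adjusted p = 0.488). In PGK it measured 451 and 948 CPM against 488 and 509 CPM, which overlap (edgeR adjusted p = 0.418). The first d0 value of each line is from a coded library. At d0 to d10, Rps4x measured 234 to 451 CPM in the coded libraries and 558 to 948 CPM in the others. Its log2 fold change for the library code, fitted as described below, was -1.16 ± 0.13. Rpl36a ranged from 0.333 to 21.9 CPM and passed in neither line.

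None of the intron-bearing duplicates passed the test between stages. Rps27l, known as a p53 target, measured 218 to 404 CPM over the 20 libraries, and its log2 fold change from d0 to d27to30 was -0.06 ± 0.19 in PGK and 0.21 ± 0.29 in E14. Rpl7l1 measured 117 to 226 CPM, with changes of -0.38 ± 0.19 and -0.50 ± 0.34. All 4 d27to30 libraries of Rpl7l1 lay below all 4 d0 libraries, but the edgeR adjusted p was 0.164 in PGK and 0.367 in E14. Rpl22l1, a duplicate of Rpl22 that is abundant in embryonic tissues, ranged from 11.3 to 73.9 CPM, with changes of 0.52 ± 0.36 and 0.91 ± 0.63. Rpl3l had 10 counts or more in 2 libraries only, the diff2 d0 libraries of PGK (1.38 CPM) and E14 (4.03 CPM), and was too low to be tested within the lines. Rps19bp1 measured 14.4 to 45.7 CPM and did not pass in any comparison of stages. Of the genes they derive from, Rpl22 (mean 580 CPM) and Rpl7 (318 CPM) were abundant, Rpl3 (1.97 CPM) and Rps27 (1.64 CPM) were low, and none passed from d0 to d27to30.

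Rpl10l and Rpl39l both dropped out in PGK and in the diff2 course of E14, and the 250 bases before their starts are shown for that reason (RefSeq, GRCm38.p6). The region of Rpl10l is chr12:66284402-66284651 on the minus strand and that of Rpl39l is chr16:10169978-10170227 on the plus strand. Capitals mark each match to CCGGAAG, the core bound by ETS factors, to TATAAA or to CACGTG on either strand.
Rpl10l: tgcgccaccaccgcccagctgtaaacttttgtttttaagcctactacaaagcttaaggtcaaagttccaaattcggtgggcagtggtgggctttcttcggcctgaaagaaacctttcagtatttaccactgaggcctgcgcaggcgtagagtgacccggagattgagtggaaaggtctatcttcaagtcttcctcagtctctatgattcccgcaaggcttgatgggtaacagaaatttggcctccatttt
Rpl39l: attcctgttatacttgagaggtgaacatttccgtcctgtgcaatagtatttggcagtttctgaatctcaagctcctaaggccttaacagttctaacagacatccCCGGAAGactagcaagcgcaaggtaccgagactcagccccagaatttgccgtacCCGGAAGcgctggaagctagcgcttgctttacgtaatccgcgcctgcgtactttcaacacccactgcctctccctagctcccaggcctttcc

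The Rpl10l region held none of the 3 motifs, and the Rpl39l region held CCGGAAG. RefSeq promoter entries of 300 bases, 250 before and 50 after the start, were found for 65 of the 85 members, 57 of them main genes. CCGGAAG on either strand occurred in 23 of the 57 main genes (40.4%) and in 9.12% of all 27025 promoters of that length. The motif contains CG, and the 250 bases before the start held a median of 18 CG dinucleotides in main genes against 6 in all promoters. The part of CG content in the motif shares was not tested. TATAAA occurred in 8.77% against 14.2%, and CACGTG in 8.77% against 7.24%. An uninterrupted run of at least 5 pyrimidines (C or T) covering the start, the letters expected of a TOP message, was present in 31.6% of the main genes, in 9.95% of all promoters and in 0 of 7 paralogues. Only 18 of the 57 main genes had such a run. Among the X-linked parents, Rpl39 had a run of 5 bases, and Rpl10, Rpl36a and Rps4x had a run of 0. The following windows run from 10 bases before to 15 bases from the annotated start, with the pyrimidine run in capitals. They set main genes that have such a run over the RefSeq start beside the retrogenes Rpl10l and Rpl39l, which do not. In Rpl39l a run of pyrimidines ends directly before the RefSeq start, and the GENCODE gene start (chr16:10170226) lies within that run. The counts of runs above therefore hold for the RefSeq starts only. They lie at chr14:18270972-18270996 (minus strand, Rpl15), chr17:27635230-27635254 (minus, Rps10), chr14:24490668-24490692 (plus, Rps24), chr7:141447641-141447665 (plus, Rplp2), chr12:66284387-66284411 (minus, Rpl10l) and chr16:10170218-10170242 (plus, Rpl39l).
Rpl15: agaaagCCTTCTTCCTTTCCTCTgg
Rps10: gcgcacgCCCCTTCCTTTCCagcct
Rps24: gctggggTCCTTCCTTgcgcgttga
Rplp2: cagcgTCTTCCTTTCgccgccggac
Rpl10l: cctccattttgcggctggcggtggg
Rpl39l: aggcctttccggatttccggtggtc

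Since Rpl10l is known from the testis, 10 male germ cell genes were measured beside it. Their summed level was 42.9 to 144 CPM at d0, 79.8 to 361 CPM at d4, 1.97 to 58.1 CPM at d10 and 2.64 to 42.8 CPM at d27to30. Of these, 5 were tested in PGK, and 3 of those were lower at d27to30 than at d0: Dazl and Ddx4, RNA-binding proteins of germ cells, and Mael of the piRNA pathway, with the same 3 of 4 tested in E14, where 12.0% of all tested genes were lower in PGK and 4.99% in E14. Unlike Rpl10l, Ddx4 was higher at d4 (41.9 to 58.8 CPM) than at d0 (3.27 to 14.5 CPM). The genes of late sperm formation were at or near 0: Prm2 and Tnp1 had no counts in any of the 20 libraries, and Prm1 and Acr stayed at 0.163 CPM or less. Summed levels of 8 fibroblast markers ran from 0 to 23.1 CPM at d0 and from 79.3 to 249.8 CPM at d27to30. In bulk RNA, fewer cells with a transcript and less of it per cell cannot be told apart, and the part of other cells in these falls was not tested.

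The 76 main genes differed widely in level, although their proteins are parts of 1 particle. Mean CPM over the 20 libraries ran from 0.368 to 2533 with a median of 51.0, with 20 genes under 5 CPM, 32 at 100 CPM or more and 5 at 1000 or more. The highest were Rpl4 (2533 CPM), Rps3 (1734 CPM) and Rpl8 (1708 CPM), all core proteins of their subunits. The lowest were Rpl11 (0.368 CPM), a large subunit protein that also restrains Mdm2, Rpl28 (0.443 CPM) and Rpl12 (1.08 CPM). Per kilobase, Rpl8 stood at 1674 and Rpl4 at 1647 CPM per kb and Rpl11 at 0.441.

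Sharing of sequence with other genes went with these levels in part. A median of 42.8% of the 50-base words in a main transcript also occurred in other annotated genes, with values up to 86.7% for Rps18. The 48 main genes under 50% shared had a median of 73.6 CPM per kb and 9 members under 5 CPM, and the 28 genes with 50% or more had a median of 25.9 CPM per kb and 11 members under 5 CPM. Rpl28, with 34.5% shared words, was low nevertheless, and Rps18 was at 302 CPM per kb. The levels of main genes with many shared words are uncertain, and the part of read assignment in them was not tested.

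**Figure D2:**
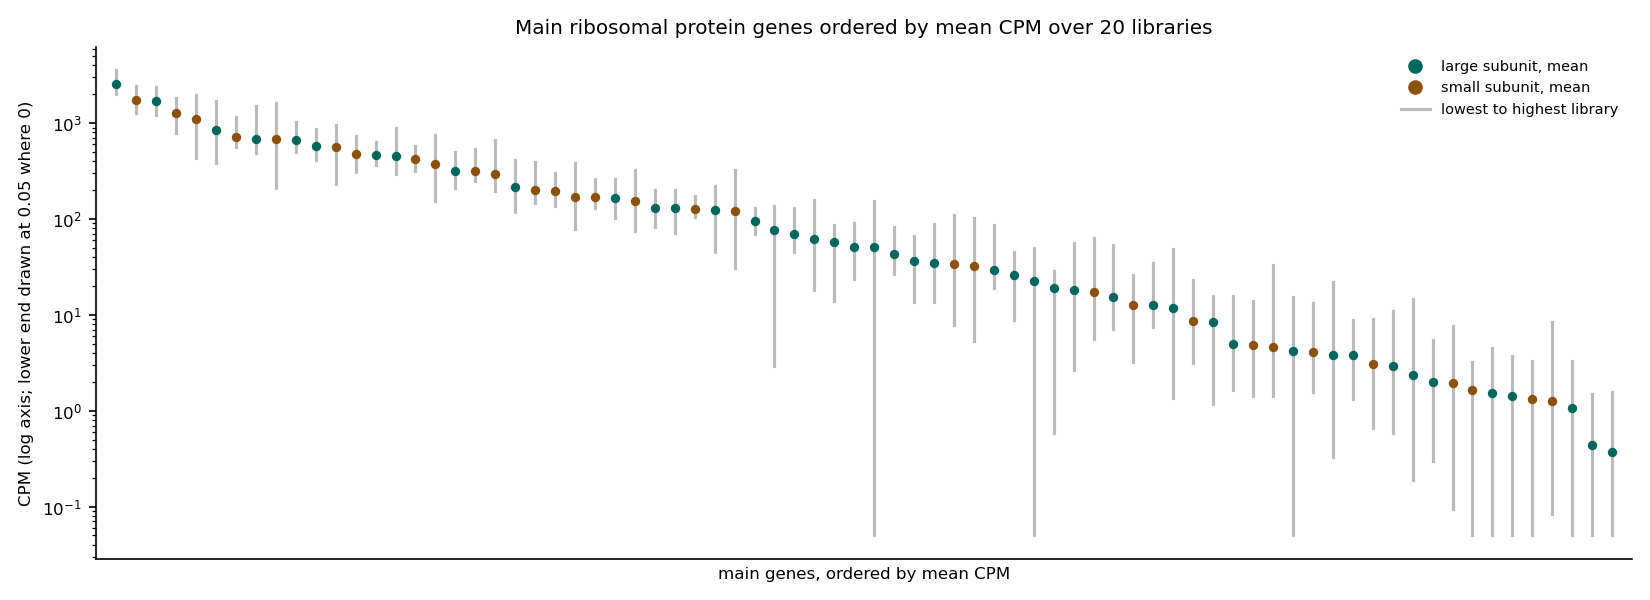
Mean CPM of each of the 76 main genes over 20 libraries (points in order of level along the horizontal axis, log vertical axis; large subunit in green, small subunit in brown), with grey bars from the lowest to the highest library. Means run from 2533 CPM for Rpl4 to 0.368 CPM for Rpl11, and the bars of several low genes reach libraries without counts.

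As a set, the main genes took a small share of the counts. It was 1.44% to 2.72% in single libraries, both extremes at d10 of E14 (diff2 and diff3). In PGK it was 1.99% and 1.81% at d0 and 1.72% and 1.76% at d27to30, and in E14 it was 2.18% and 2.43% against 1.81% and 1.79%. Both d0 values exceeded both late ones in each line, by less than the gap between the 2 E14 libraries of d10. Without the 3 highest main genes the library range was 0.906% to 1.93%.

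**Figure D3:**
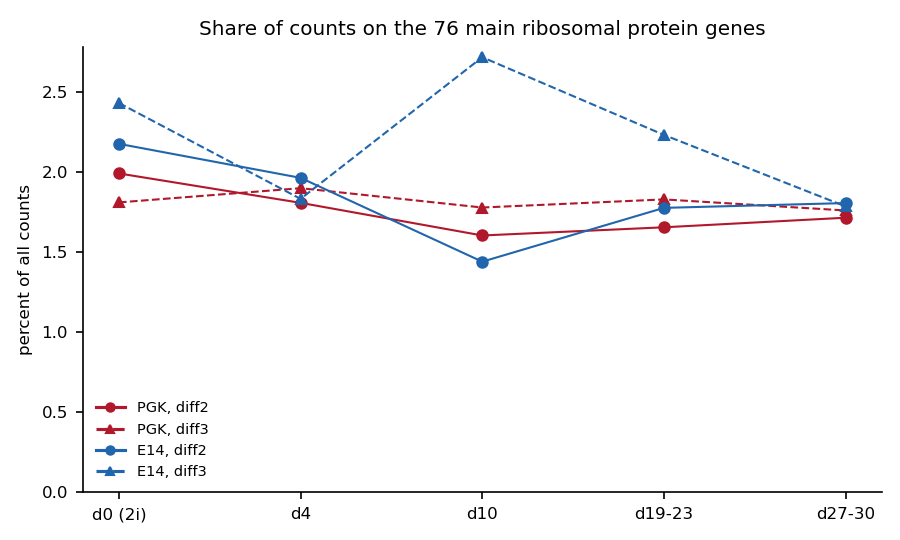
Percent of all counts (vertical axis from 0) on the 76 main genes, 1 point per library, with lines joining the libraries of 1 experiment. The widest gap between experiments is at d10 of E14, from 1.44% to 2.72%.

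Between stages, few main genes passed the test. Each group of d0, d4 and d10 pairs a coded with an uncoded library, and many main genes differed by the code, as described below. That difference is part of their spread within groups, so a lack of calls does not show stable levels. From d0 to d4, 0 of 76 passed in PGK, where 8.35% of 15284 genes were higher and 6.44% lower, and 0 of 74 in E14, where 5.16% of 14501 genes were higher and 4.40% lower. From d4 to d10, again 0 passed in either line, beside 1.05% higher and 0.465% lower in PGK and 0.145% and 0.0414% in E14. At an unadjusted p under 0.05 these counts were 1 and 3 main genes for the first step and 1 and 0 for the second. No share of all genes at that p is given for these steps, so the counts have no background. DESeq2 and limma called 0 main genes at both steps in both lines. The median log2 fold change of the main genes from d0 to d4 was -0.06 in both lines, against -0.01 for all genes in PGK and 0.15 in E14. Its sign was not stable: without single libraries it ran from -0.12 to 0.11 in PGK, positive without the diff2 library of d0 or of d4, and from -0.23 to 0.21 in E14, positive without the diff3 d0 or the diff2 d4 library. Between d10 and d19to23, and between d19to23 and d27to30, edgeR called no gene in either line (0% of those tested), with 208 and 231 genes at an unadjusted p under 0.05 in PGK and 938 and 106 in E14, 0 of them main genes. DESeq2 called up to 197 genes higher and 77 lower there, in E14 from d10 to d19to23, and 0 members.

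From d0 to d27to30, 3 of 76 main genes passed in PGK, 1 higher and 2 lower, where 13.0% of all tested genes were higher and 12.0% lower. Rpl5, which carries 5S rRNA into the large subunit and restrains Mdm2, measured 17.0 and 9.02 CPM at d0 and 23.8 and 42.7 CPM at d27to30. Its log2 fold change was 1.28 ± 0.40 (edgeR adjusted p = 0.0396), and both late libraries lay above both early ones. The call was lost without the diff3 d0 library (0.147) or the diff3 d27to30 library (0.277). In E14 Rpl5 measured 18.7 and 31.1 CPM at d0 and 32.4 and 20.6 CPM late, and these values overlap.

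Rpl36, a large subunit protein, measured 56.6 and 7.06 CPM at d0 and 5.24 and 2.64 CPM at d27to30 in PGK. Its log2 fold change of -3.09 ± 0.93 (edgeR adjusted p = 0.036) rested on the coded d0 library. Without that library it was -0.92 (adjusted p = 0.450), and it was also not called without either d27to30 library (0.0893 and 0.196) or with a term for the library code (-1.59, 0.0726). Rpl39, described above, was the other main gene that fell. In E14 0 of 74 main genes passed, where 8.73% of all genes were higher and 4.99% lower. An unadjusted p under 0.05 was found for 7 main genes, and DESeq2 called 5, all lower. The shares of all genes at that p and by DESeq2 are not given here, so these counts have no background. The median log2 fold change over these stages was -0.13 in PGK and -0.33 in E14, against -0.06 and 0.19 for all genes. The E14 value rested on the shallow diff3 d0 library, without which it was 0.02, and within the experiments the median difference of log2 CPM was 0.03 in diff2 and -0.28 in diff3.

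**Figure D4:**
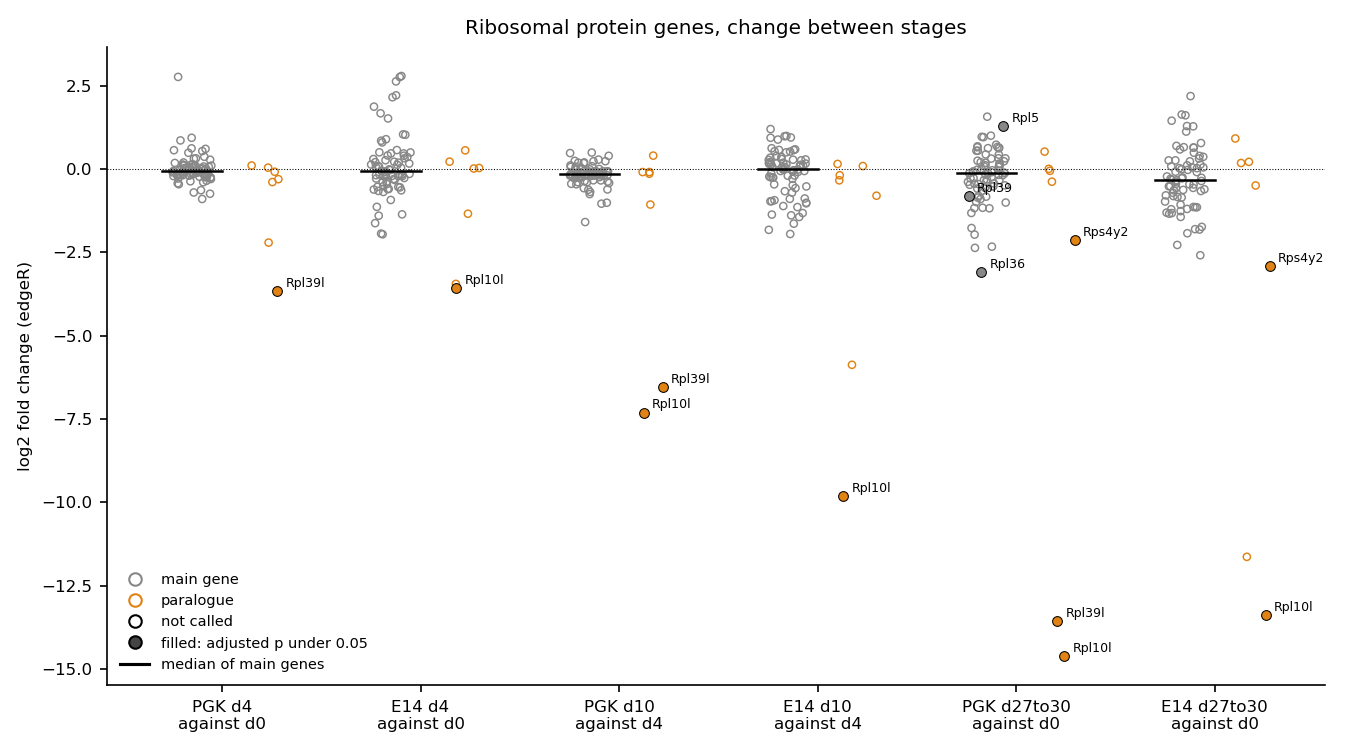
Fitted log2 fold change (vertical axis) of each main gene (grey) and paralogue (orange) in 6 comparisons, filled and named where the edgeR adjusted p was under 0.05, with the median of the main genes as a black bar. The medians of the main genes lie between -0.33 and -0.01, and Rpl10l lies below them in all 6 comparisons plotted; fitted values for genes without counts in 1 group depend on the prior count.

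The libraries of both lines, compared at once, gave similarly small counts. In total 5 of 76 main genes lay above all d0 libraries in all d27to30 libraries (6.58%, against 20.6% of 15705 genes with 10 counts in 2 libraries) and 4 below (5.26%, against 11.7%). The 5 were Rpl15, Rpl27a, Rpl35a, Rps12 and Rps24, and those below included Rpl32, Rps15 and Rps21, named by this count and after their values were seen. Of the 5 above, Rpl15, Rpl27a and Rps24 were also lower in the coded libraries by the test described next, and 2 of the 4 d0 libraries are coded. Rps24 measured 265 and 317 CPM in the coded d0 libraries, 760.4 and 736 CPM in the uncoded ones and 764 to 826 CPM late. Rps12 was near the limit of detection, at 0 to 1.06 CPM against 1.09 to 2.50 CPM. Rps21, a small subunit protein, measured 300 to 666 CPM in the 4 d0 libraries and 222 to 258 CPM in the 4 late ones. Rps15 measured 444 to 526 CPM at d0 and 358 to 410 CPM late. Of the 8 paralogues, 3 lay below and 0 above: Rpl10l, Rps4y2 and Rpl7l1.

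The largest differences among the main genes went with the library code, not with the stage. In a fit with each group and the code as terms, which was added after seeing the data, 26 of 76 main genes differed between coded and other libraries, 5 higher and 21 lower, where 7.58% of 15732 genes were higher and 5.56% lower. At d0 to d10, 4 main genes lay above in all 6 coded libraries without overlap with the 6 others and 18 lay below, against 2.94% and 1.37% of 15705 genes. With the experiment as a replicate block as well, 4 main genes were lower, Rpl26, Rps20 and Rps24 among them, and 2 higher (Rplp2, Rps2), beside 0.178% of all genes higher and 0.261% lower.

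Rpl26, a large subunit protein that also binds p53 mRNA, measured 0 to 3.80 CPM in the coded libraries, 45.7 to 156 CPM in the diff3 libraries of d0 to d10 and 38.6 to 77.3 CPM in all libraries of d19to23 and later. Its log2 fold change for the code was -5.94 ± 0.74 (edgeR adjusted p = 0.000192). Rplp2, a stalk protein of the large subunit, measured 103 to 158 CPM in the coded libraries and 18.1 to 54.4 CPM in the other early ones, a log2 difference of 2.20 ± 0.23 (edgeR adjusted p = 2.22e-05). The late libraries started at 23.9 CPM in diff2 and ran from 21.4 to 25.2 CPM in diff3, within the range of the uncoded early ones. Rps24, mutated in some cases of Diamond-Blackfan anaemia, measured 211 to 317 CPM in coded libraries and 708 to 1636 CPM in the early others (log2 -1.78 ± 0.20).

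The further main genes with the largest rises were Rps2 (2.13 ± 0.33), Rpl18 (1.54 ± 0.25) and Rpl23, which measured 116 to 137 CPM in coded libraries and 2.96 to 82.4 CPM in the other early ones, and with the largest falls Rpl36a (-3.58 ± 0.59), Rpl27 (-3.11) and Rpl23a (-2.95). Among the paralogues Rpl36al was lower in the coded libraries, at 47.6 to 65.8 CPM against 86.1 to 117 CPM (log2 -0.83 ± 0.15, edgeR adjusted p = 0.00202). Rpl10l (0.79) and Rps4y2 (-0.41) did not pass. Over all 76 main genes, the median absolute log2 difference between diff2 and diff3 was 0.65 for the mean of d0 to d10 and 0.15 for the mean of the later stages. These means exceeded 1 in 24 genes early and in 0 late. In single groups the difference exceeded 1 in 21 (PGK d4) to 43 genes (E14 d10) early. Late, it did so in 1 (both E14 groups) to 7 genes (PGK d27to30). The falls of Rpl10l within each experiment, given above, are within the coded libraries for diff2 and within the uncoded ones for diff3 up to d10.

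**Figure D5:**
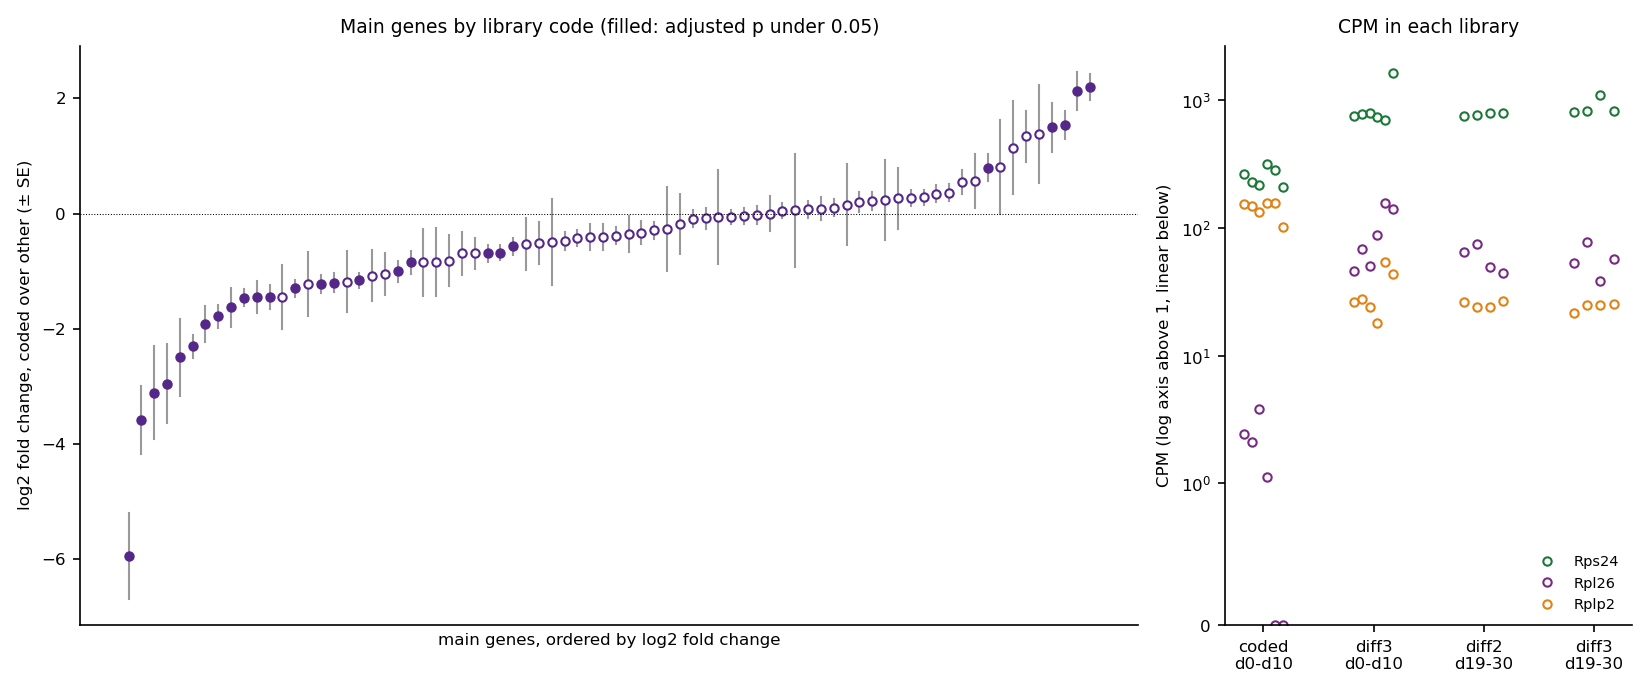
Left, fitted log2 fold change (± SE) of coded over other libraries for the 76 main genes, filled where the edgeR adjusted p was under 0.05, ordered by value. Right, CPM of Rps24, Rpl26 and Rplp2 in each library by code and experiment (log axis above 1); Rpl26 is at 3.80 CPM or less in all 6 coded libraries and at 38.6 CPM or more in the 14 others.

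Between the lines, no member passed the test. At d0, 0 of 76 main genes and 0 of 8 paralogues differed between PGK and E14, where 0.286% of 15732 genes were higher in PGK and 0.222% lower. At d27to30 the background was 0.0318% higher and 0.0254% lower, and again 0 members passed. Of the main genes, 7 had an unadjusted p under 0.05 at d0 and 3 at d27to30, and DESeq2 called 4 members at d0. For these counts too, the share of all genes is not given here. The change from d0 to d4 differed between the lines for 0 members (0.0381% of genes in each direction), as did the change from d0 to d27to30 (0.0191% and 0.0318%). Rpl30, a large subunit protein named after its values were seen, measured 15.9 to 50.2 CPM in the 10 PGK libraries and 0 to 21.8 CPM in the 10 E14 libraries, where the value of 0 is the shallow diff3 d0 library, with a log2 difference of 3.15 ± 0.87 at d0 (edgeR adjusted p = 0.129) and 2.33 ± 0.82 at d27to30 (adjusted p = 1).

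Genes that build ribosomes were compared with the parts themselves. Of 66 ribosome biogenesis genes, 7 were higher at d4 than at d0 in PGK and 0 lower, and 1 was higher in E14, beside 8.35% of all tested genes higher in PGK and 5.16% in E14, so the counts were close to or under that background. Named after their values were seen, the 7 were Heatr1, Utp20, Ddx21, Ncl, Grwd1, Rrp12 and Nop58, factors of pre-rRNA processing, and their log2 fold changes ran from 0.66 (Nop58) to 1.15 (Heatr1). Nop58, a core protein of box C/D snoRNPs, measured 413 and 420 CPM at d0 and 642 and 736 CPM at d4. The median of the list was 0.39 in PGK and 0.44 in E14, against -0.01 and 0.15 for all genes. Of 15 RNA polymerase I genes, 1 was higher at d4 in PGK, Polr1e (0.78 ± 0.23, edgeR adjusted p = 0.0479), and 0 changed in E14.

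At d27to30 against d0, 1 biogenesis gene was higher in PGK (Ddx21, 0.88 ± 0.23) and 2 were lower, Dkc1, the pseudouridine synthase of box H/ACA snoRNPs (-1.26 ± 0.23), and Tsr2 (-1.73 ± 0.35), fewer than the 13.0% higher and 12.0% lower among all tested genes. Of the 15 RNA polymerase I genes, 2 were lower in PGK, Rrn3 (-0.77 ± 0.23) and Ttf1 (-0.83 ± 0.25), close to the 12.0% among all tested genes. In E14, 0 genes of either list passed. Among 19 tested elongation factors and other TOP messages, Pabpc1 was lower (-0.81 ± 0.17) and Hnrnpa1 higher (1.13 ± 0.34) in PGK. Tpt1 was lower in E14 (-1.93 ± 0.56, edgeR adjusted p = 0.0453), where 4.99% of all tested genes were lower. None of these counts exceeded the share among all tested genes by more than 1 gene.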

How the data were processed

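Raw counts per gene were deposited by the authors in 1 table per line, together with log2 values after a variance-stabilizing transformation, per the file headers. These log2 values were used only for the limma alternative named below. Per the submitters' processing notes, CASAVA 1.8.2, Cuffdiff and DESeq2 were used with GRCm38 (mm10). Not given in the sources used here: the aligner, the annotation, the use of strand and the handling of reads with several matches. CPM is the count divided by the library total, scaled as usual for this unit.

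Members, lists and named genes were chosen with earlier results of these data known. The text names all paralogues and their parents, X-linked members, per comparison at most 4 called main genes with the largest rise and 4 with the largest fall, the 3 highest and 3 lowest main genes, and for other lists the 3 smallest adjusted p-values from d0 to d27to30. Counts were tested with edgeR 4.0.16 in R 4.3.3 (TMM, filterByExpr with a minimum count of 10, robust quasi-likelihood tests, Benjamini-Hochberg adjustment, threshold 0.05), in fits of 10 libraries per line with 5 residual degrees of freedom, or of all 20 with 10 for comparisons between lines. The scripts were tested on simulated data. Same-numbered libraries belong to 1 differentiation experiment per the labels; their deviations from group means correlated at -0.20 to 0.52 over 20 pairs of stages. Alternatives were RLE factors, totals alone, TMM without members, no filter, DESeq2 1.42.0, limma 3.58.1 on the deposited log2 values, the replicate block, a library code term, a joint fit and leaving out each library. Fits without coded or shallow libraries were added after seeing the data. Coding sequences were aligned with Biopython 1.88. A log2 fold change with its SE is edgeR's, and a pseudocount of 0.5 CPM was used for differences between experiments. Counts of 0 and floors cover counting error only. Results on a few genes are not reported here.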

Additional observations from a re-analysis of the deposited data

Results flagged for a closer look

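Of the 6 symbols marked as ribosomal protein pseudogenes, which the comparisons leave out, 5 had more than 3 counts in at least 3 libraries. Rplp2-ps1 reached 646 CPM and was never under 229.9 CPM, above the 158 CPM that its parent Rplp2 reached. Rps15a-ps6 reached 57.8 CPM, and its 6 coded libraries (37.3 to 57.8 CPM) lay above all others (14.9 to 33.1 CPM). Rps15a-ps4 reached 25.2 CPM and was at 0.522 CPM or less in the coded libraries, against at least 2.17 CPM in the others. Rpl34-ps1 reached 31.1 CPM and had counts only in the 3 coded libraries of PGK, with none in the other 17. Rps19-ps3 reached 2.50 CPM.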

How the results depend on the processing

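Many counts of called members changed when single libraries or the coded or shallow ones were left out. From d0 to d4, PGK had 1 called member, and 0 in the joint fit, 4 with the library code term, and 2 with limma and with the replicate block. From d4 to d10 PGK had 2, and 1 in the joint fit and 4 with the code term. E14 had 1 at each of these steps: from d0 to d4 32 without coded libraries and 0 without the shallow ones, and from d4 to d10 0 with the code term, 10 without coded libraries and 0 without the shallow ones. From d0 to d27to30 E14 had 2, and 8 with DESeq2, 9 in the joint fit, 6 without a filter, 40 without coded libraries and 7 without the shallow ones. Fits without the coded or the shallow libraries leave 1 library in some groups, assumed to vary like the other groups. In E14 without coded libraries, that library is a shallow one at d0 and d4. The counts of called members from these fits, in this paragraph, are therefore no evidence of differences between stages or lines. They show only that the calls depend on the processing, and no conclusion is drawn from their size. Without coded libraries, counts that were 0 became 12 for E14 from d10 to d19to23, 26 between lines at d0, 2 between lines at d27to30, and 12 and 19 for the differences between lines; DESeq2 called 4 between lines at d0. The 27 members that differed by library code became 6 with the replicate block.

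Leaving out 1 library at a time gave 1 to 2 and 0 to 2 called members for the first 2 PGK steps and 3 to 11 for d27to30 against d0 in PGK (6 with all libraries). In E14 it gave 0 to 10, 0 to 0 and 1 to 11. Between lines at d0 it gave 0 to 8, and for the differences between lines 0 to 4 each. The log2 fold change of Rpl39l from d0 to d4 in E14 was -3.45 and ran from -11.66 to 8.22, the latter without the diff2 d0 library, the only E14 d0 library with counts of it. Beside the calls of Rpl10l from d0 to d4 in PGK and of Rpl39l from d0 to d27to30 in E14, given above, the replicate block changed no call of a gene named for a stage comparison. For the share of counts on the main genes, which has no test, 12 of 20 alternative values moved by more than the SD between replicates; in PGK at d0 it was 1.90%, and 1.27% without the 3 highest main genes. The causes were not tested.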
